A study of Mus musculus with 550 samples.

Results

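Loss of Dnmt3b was examined in 108 single cells of mouse embryoid bodies (EBs) at day 3 of differentiation, 54 from a Dnmt3b knockout (3BKO) and 54 from wild type (WT). EBs are floating aggregates in which embryonic stem cells (ESCs) leave the pluripotent state. Both groups came from E14 ESCs of the 129/Ola strain, were aggregated without LIF, and belong to library batch 1. The 3BKO group carries the genotype Dnmt3b -/- and was sorted into plate 210, and the WT group into plate 209, so genotype and plate cannot be told apart. The whole series holds 550 cells of 3 genotypes at day 3 and day 9, of which 486 passed the same filter. Day 3 mutant cells of batch 2 were left out because their Dnmt3a values contradict their labels: cells labelled 3BKO on plate 211 had 12.8 CPM of Dnmt3a (CPM, reads of a gene per 1000000 reads counted), against 587 CPM in the 3BKO cells of batch 1. The study worked with more than 1 knockout clone and pooled EBs of a clone, but the labels do not say which clone a cell came from. Each group was therefore 1 sample, no difference below has a replicate check, and no test was run. Intervals are exact 95% Poisson intervals of summed reads or Clopper-Pearson intervals of shares of cells. They cover counting error alone: the libraries carry no molecular identifiers, so several reads can stem from 1 molecule. Many genes below were named because their difference was large. Their intervals take no account of that choice, describe these cells only and are no test of the genotype.

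DNMT3B is 1 of the de novo DNA methyltransferases. Together with DNMT3A, and with the catalytically inactive partner DNMT3L, it adds methyl groups to unmethylated CpG sites, mainly while the epiblast forms. Its known targets include promoters of germline genes, which stay methylated in somatic cells, and gene bodies. At day 3 an EB is mostly epiblast-like: naive genes are falling and lineage genes are only starting.

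Of 62 labelled cells in each group, 54 were kept (87.1%, interval 76.2 to 94.3% in both), a difference of 0.0 percentage points (interval -13.1 to 13.1). Kept 3BKO cells had a median of 215104.5 reads and 7090 detected genes, and WT cells 211599 reads and 7265.5 genes. The reads summed to 12055233 in 3BKO and 11248948 in WT. Mitochondrial genes took 5.91% of them in 3BKO and 5.24% in WT. Levels below are CPM of the summed counts, and a difference is 3BKO minus WT on the log2(CPM + 1) scale, on which changes of low genes are understated. A gene counted as detected where it had a read in 20% or more of the 54 cells of 1 group or the other. Of 10625 such genes, 366 were higher in 3BKO by at least 1 on the log2 scale (3.44%) and 275 lower by as much (2.59%), with a median difference of 0.01 (quartiles -0.24 and 0.29). WT cells of batch 2, from the same plate as WT batch 1, differed from it more widely: of 10989 genes, 1305 were higher (11.9%) and 1809 lower (16.5%) in batch 2. More genes thus differed between the WT batches than between the genotypes within batch 1. WT batch 2 had 25 kept cells against 54 in batch 1, and fewer cells widen such differences. The 2 counts of genes are therefore not on an equal footing, here and where batch 2 is the control below. The median mitochondrial share of a WT cell was 13.5% in batch 2 and 5.11% in batch 1. Markers of pluripotent and epiblast cells were looked at in both groups. All 10 core pluripotency genes were detected, as were 15 of 16 primed epiblast genes. Pou5f1, the factor that defines the pluripotent state, stood at 423 CPM in 3BKO and 411 in WT.

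A pair of cells stood apart. The 3BKO cell of well A6 had 482160 reads but 2779 detected genes, and held over 50% of the reads of 130 genes, while all other 3BKO cells together did so for 4. The WT cell of well C8 had reads of 14 of 15 primitive and parietal endoderm markers, which summed to 11816 CPM against a median of 35.1 CPM in the other WT cells. Differences without both cells were computed for all genes and are given where they matter.

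Dnmt3b itself was the first check of the labels. Its level was 167 CPM in 3BKO (interval 160 to 174) and 600.1 in WT (586 to 615), a difference of -1.84. The gene lies at chr2:153649450-153687730 (plus strand) in GRCm38 (GENCODE vM21), as read for the positions below. In single WT cells it ranged from 0 through a median of 179 to 4339 CPM, and in 3BKO cells from 0 through 61.6 to 1506 CPM. The groups overlap widely. Cells of the Dnmt3a knockout (3AKO) of batch 1 held 261 CPM of Dnmt3b, a difference of -1.20 from the same WT cells. WT cells of batch 2 held 523 CPM. A level of Dnmt3b below WT was thus not particular to 3BKO. After thinning every cell to 50000 reads, 34 of 54 3BKO cells (62.96%) and 46 of 54 WT cells (85.2%) had a read, a difference of -22.2 points (interval -38.6 to -4.51). Without thinning, these were 38 and 47 cells, and the interval of the difference (-32.6 to 0.015) included 0. Which exons the knockout removes is not given in the sources used here, so reads over the whole gene do not tell how much intact transcript was left.

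Of the other writers and erasers of methylation, Dnmt3l and Tet3 differed by more than 1. Dnmt3a stood at 587 CPM in 3BKO (573 to 601) and 455 in WT (443 to 468), a difference of 0.37, with cell medians of 492 and 248 CPM. Dnmt3l, which stimulates both de novo enzymes, was at 52.2 CPM (48.2 to 56.4) against 132 (125 to 139), a difference of -1.32. Dnmt3l lies at chr10:78041947-78063622 (plus strand). It had a read in 22 of 54 3BKO cells and 38 of 54 WT cells. WT cells of batch 2 held 74.3 CPM of it, which puts the 3BKO level lower by less than 1 (-0.50), and 3AKO cells of batch 1 held 431 CPM. Dnmt1, the maintenance enzyme, differed by -0.23, and its recruiter Uhrf1 by -0.05. Among the TET dioxygenases, which oxidise methylcytosine, Tet1 differed by 0.10 and Tet2 by 0.27, while Tet3 stood at 12.03 CPM against 5.24, a difference of 1.06. All 12 genes of the methylation machinery list were detected, with 1 higher and 2 lower by at least 1 and a median of -0.13.

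**Figure D1:**
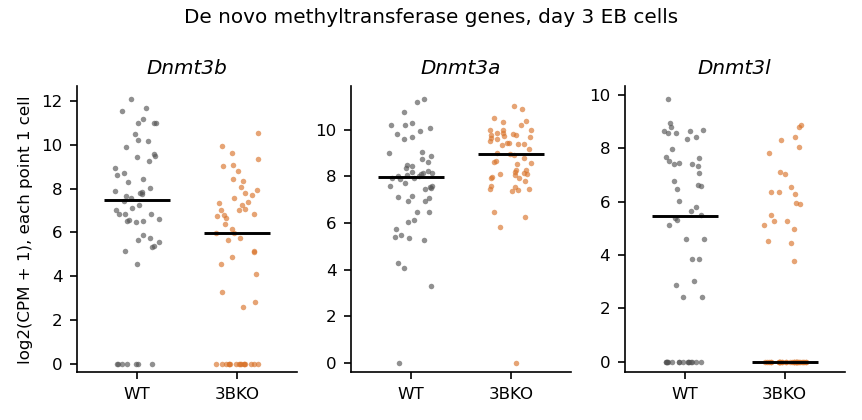
Level of Dnmt3b, Dnmt3a and Dnmt3l in each kept day 3 cell, as log2(CPM + 1), for WT and 3BKO (54 cells each). Points are cells and black bars are medians. The Dnmt3b and Dnmt3l bars lie lower in 3BKO, the Dnmt3a bar lies higher, and the cells of both groups overlap for all 3 genes.

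Most of the detected replication-dependent histone genes were higher in 3BKO. These clustered genes supply core histones and H1 linkers during DNA replication. The family was picked after Hist1h1e and Hist2h2ac had come out among the named genes, so its count is a description. Of 70 gene names, 21 were detected, all 21 were above 0, and 11 were higher by at least 1, with a median of 1.01. Over all detected genes 3.44% were higher by at least 1, and the median was 0.01. Some members passed the detection limit through 3BKO alone, such as Hist1h2an, read in 31.5% of 3BKO and 3.70% of WT cells. Such members were by that rule read in more 3BKO cells, so the filter in part set the count above 0. Without the 2 cells that stood apart, 21 remained above 0 and 10 past 1, and with thinned cells 17 were above 0 and 10 past 1. Against WT cells of batch 2, 16 were above 0 and 13 past 1, and Hist1h2bc was lowest at -2.28. Hist1h1e, an H1 linker, stood at 190.5 CPM (183 to 198) in 3BKO and 68.9 (64.1 to 73.9) in WT, a difference of 1.45. The gene lies at chr13:23620629-23622558 (minus strand). Its cell medians were 164 and 41.1 CPM, with highest cells at 600.1 and 476. Of the other linkers, Hist1h1d differed by 1.396, Hist1h1a by 1.13, Hist1h1b by 1.09 and Hist1h1c by 1.01. All 5 detected linker genes of the family thus lay past 1. Without the 2 cells that stood apart, Hist1h1b was at 0.98. Against WT cells of batch 2, Hist1h1c was at -0.015. Hist2h2ac, an H2A gene, was at 17.2 CPM against 2.49, a difference of 2.38, and had a read in 41 of 54 3BKO cells and 19 of 54 WT cells (23 and 7 cells when thinned, a difference of 29.6 points, interval 11.7 to 45.7). Hist1h3c, an H3 gene, had a read in 31 and 7 cells. Hist1h4i, an H4 gene, was lowest with a difference of 0.02.

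Summed over the 21 genes, a WT cell held from 26.1 through a median of 503 to 1276.5 CPM and a 3BKO cell from 83.1 through 914 to 2819 CPM. The ranges overlap, and 35 of 54 3BKO cells (64.8%) lay above the WT median. The summed level over all cells was 991 CPM in 3BKO and 498 in WT of batch 1, 285 in WT of batch 2, and 268 in the Dnmt3a knockout (3AKO) of batch 1, which was sorted into plate 211. The 9 detected replacement histone genes, which are made outside replication too, gave other values: 4 were above 0, 0 were past 1 in either direction, and the median was -0.12. Replication-dependent histone copies are close to identical and overlap (Hist1h1e shares 496 exon bases with Hist1h2be), so the split of reads between single genes is uncertain. Reverse transcription started from oligo-dT, and most transcripts of these genes carry no poly(A) tail, so the counts cover a part of their RNA.

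Cell cycle genes were checked beside the histones. Of 18 S phase genes, 5 were above 0 and 0 past 1 in either direction, with a median of -0.14. Of 18 G2 and M phase genes, 16 were above 0 and 0 past 1, with a median of 0.33. Mki67, a proliferation antigen, stood at 95.3 CPM against 55.1 (0.78), and Plk1, a mitotic kinase, at 269 against 171 (0.65). The part of the cell cycle in the histone difference was not tested.

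Among the 12 lowest genes were Rab25, Esrp1, Grhl1 and Espn, known from epithelial cells, which were picked out from the ranking after their values were seen. Rab25, a GTPase of apical recycling in epithelia, stood at 1.66 CPM (1.01 to 2.56) in 3BKO and 27.1 (24.2 to 30.3) in WT, a difference of -3.40. It lies at chr3:88542029-88548300 (minus strand). It had a read in 3 of 54 3BKO cells and 22 of 54 WT cells, the same with and without thinning, a difference of -35.2 points (interval -50.1 to -18.7). Its highest cells were at 50.97 and 272 CPM. Esrp1, a splicing factor that sets epithelial isoforms, was at 1.33 CPM against 12.3 (-2.51), with a read in 4 and 19 cells. Grhl1, a grainyhead factor of epithelia, was at 0.58 CPM against 7.201 (-2.38). Its relative Grhl2, a member of the primed epiblast list, was at 7.30 against 14.7 (-0.92), with a read in 10 and 29 cells. Espn, an actin bundler of microvilli, was at 0.08 CPM (1 read) against 4.09, a difference of -2.23. Tead4, a Hippo pathway factor known from trophectoderm, was at 0.41 CPM (in 1 cell) against 8.89 (-2.81). Most cells of both groups had no read of these genes, except Grhl2, which was read in most WT cells.

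Epithelial members of the cadherin switch list had smaller differences. Cdh1, the epithelial cadherin, stood at 75.1 CPM (70.3 to 80.1) against 117 (111 to 124), a difference of -0.64, with cell medians of 39.9 and 82.1 CPM. Epcam was at 194 CPM against 278 (-0.52). Cldn6, a tight junction protein, was at 53.8 against 84.0 CPM (-0.63) and had a read in 13 and 32 cells. On the mesenchymal side, Vim, an intermediate filament, was at 277.5 CPM against 149 (0.89), with cell medians of 273 and 80.1 CPM. Zeb1, a repressor of Cdh1, was at 20.7 against 6.85 CPM (1.47). Of the other mesenchymal members, Fn1 differed by 0.03 and Cdh2 by -0.28, and Snai1, Snai2, Twist1 and Zeb2 were below the detection limit. Over the 10 detected members of the cadherin switch list, 3 were above 0 and 7 below, with 1 past 1 in each direction and a median of -0.50. Against WT cells of batch 2 the median of the same members was 0.13, on a scale where the median of all genes moved to 0.33. Rab25 was at 7.56 CPM in those cells and Esrp1 at 7.21, between the levels of the 2 groups compared.

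**Figure D2:**
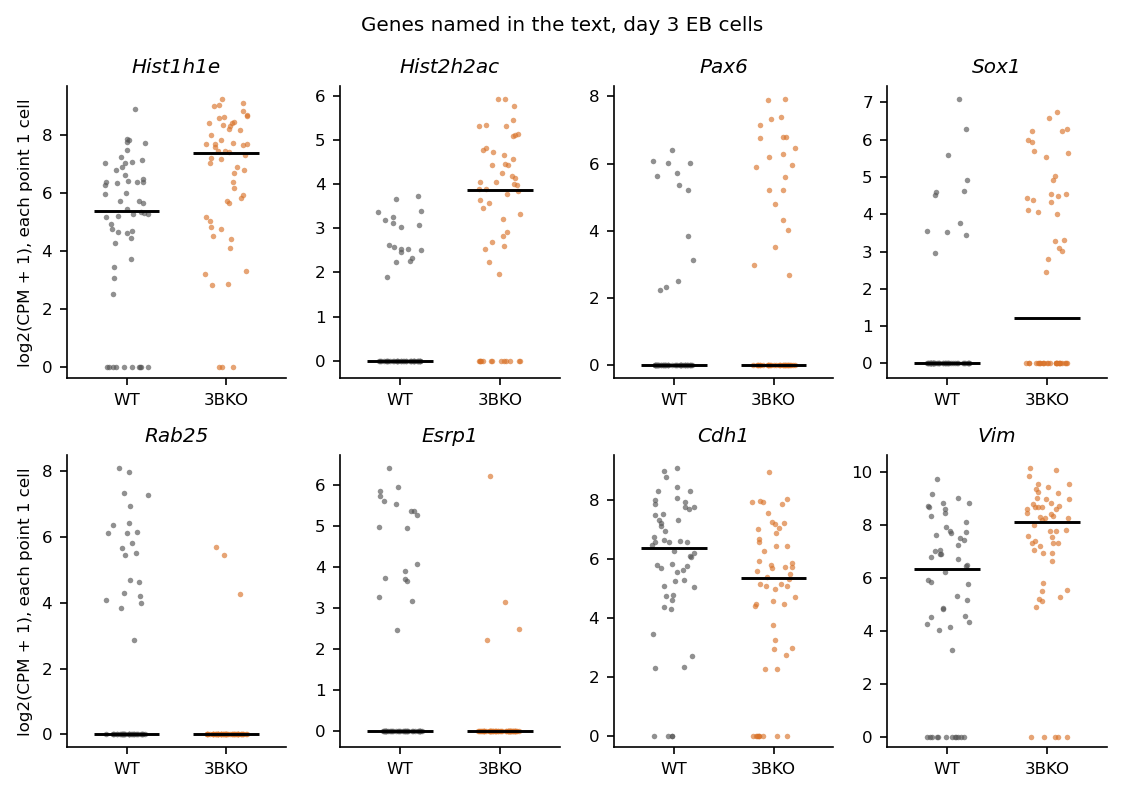
Level of 8 genes in each kept day 3 cell, as log2(CPM + 1), for WT and 3BKO (54 cells each). Points are cells and black bars are medians. Hist1h1e and Vim medians lie higher in 3BKO and the Cdh1 median lower, while for Pax6, Rab25 and Esrp1 both medians are at 0 and the number of cells above 0 differs.

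The remaining lower genes were mixed. Rnf39 was at 1.58 CPM against 19.4 (-2.98). Trib3, a pseudokinase induced by the amino acid and unfolded protein stress responses, was at 2.16 CPM (1.41 to 3.16) against 21.7 (19.1 to 24.6), a difference of -2.85, and had a read in 6 and 15 cells. The ATF4 stress response list to which it belongs had 23 detected members, 1 past 1 in each direction and a median of -0.08. Cd34, a surface sialomucin, differed by -2.56 (3 and 13 cells with a read), Slc17a9, a vesicular nucleotide transporter, by -2.34, Rhd, a Rhesus blood group protein, by -2.33, Otud3, a deubiquitinase, by -2.28 and Cd59a, a complement inhibitor, by -2.24. Among genes with a read in most cells of both groups (80% or more), the lowest was Ctsl, a lysosomal protease, at 463 CPM against 1445 (-1.64). A single WT cell, that of well C8, held 72.0% of its WT reads, and without both cells the difference was 0.205. The next 7, from Pak1 (-0.82) to Oat (-0.80), did not reach 1. Klf2, a naive factor among them, differed by -0.81, and by -1.12 without both cells.

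The 12 highest genes were read in 11 to 25 of 54 3BKO cells, apart from Hist2h2ac (2.38, described above) in 41. Actn2, a sarcomeric actinin, had 99 reads in 11 of 54 3BKO cells and 0 reads in WT. Its level of 8.21 CPM (6.67 to 9.998) was 30.8 times the 0.267 CPM that 3 counts over the WT group would give. The WT interval reached 0.328 CPM, so that ratio is no lower bound. WT cells of batch 2 held 1.42 CPM of Actn2, which left a difference of 1.93. A count of 0 of 54 cells allows a share of up to 5.56% by the limit of 3 counts, and 6.60% by the Clopper-Pearson bound. Hoxa5, a homeobox gene, was at 13.4 CPM against 2.22 (2.16), Rprm, a p53-induced cell cycle inhibitor, at 12.7 against 2.31 (2.05), and Acvr1, a BMP type I receptor, at 6.72 against 0.62 (2.25). Smoc1, a secreted modulator of BMP signalling, was at 11.2 CPM against 2.13 (1.96) and Capn3, a calpain protease, at 41.1 against 9.60 (1.99). Capn3 was also at 40.6 CPM in the 3AKO cells of batch 1, and at 10.99 in WT cells of batch 2. Proser2 (2.45), Calhm2 (2.37), Inf2, an actin regulator (2.11), Cd47, a phagocytosis checkpoint (2.02), and Jmy, a p53 cofactor (2.01), were the others. Most of the 12 were also higher in 3AKO cells of batch 1 than in the same WT cells. Actn2, Proser2, Calhm2, Acvr1, Inf2, Rprm, Cd47, Jmy, Capn3 and Smoc1 differed there by 1.17 (Rprm) to 2.48 (Acvr1). Hoxa5 (-1.21) and Hist2h2ac (-0.69) were lower in 3AKO. Levels above WT were thus not particular to 3BKO for most of these genes. Exons of Calhm2 overlap Pdcd11, on the other strand, by 436 bases, and those of Capn3 overlap Ganc by 386, so their counts are uncertain. All 24 genes named from both ends kept their sign and a size of at least 1 without the cells of wells A6 and C8. With WT cells of batch 2 as the control, 23 kept their sign and 16 a size of at least 1, and Jmy stood at -0.44.

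Among genes that reached 80% of cells in both groups (3080 genes, of which 16 were higher and 1 lower by at least 1), the top was set by the cell of well A6. Polr2a, the large subunit of RNA polymerase II, stood at 884 CPM in 3BKO against 50.3 in WT (4.11), but 95.05% of its 3BKO reads lay in 1 cell. Without both cells the difference was -0.17. Zscan10 went from 2.17 to 0.16, Mdc1 from 1.86 to 0.74, Hnrnpl from 1.37 to -0.21, Prmt1 from 1.30 to 0.27 and Cox4i1 from 1.21 to 0.12. Hist1h1e and Slf2 did not rest on it. Slf2, which links SMC5/6 to DNA lesions, was at 81.9 CPM (76.8 to 87.1) against 29.3 (26.3 to 32.7), a difference of 1.45, or 1.22 without both cells. All 54 3BKO cells and 45 of 54 WT cells had a read of it. It stood at 65.6 CPM in WT cells of batch 2, and 253 of its exon bases overlap 4930414N06Rik on the other strand.

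**Figure D3:**
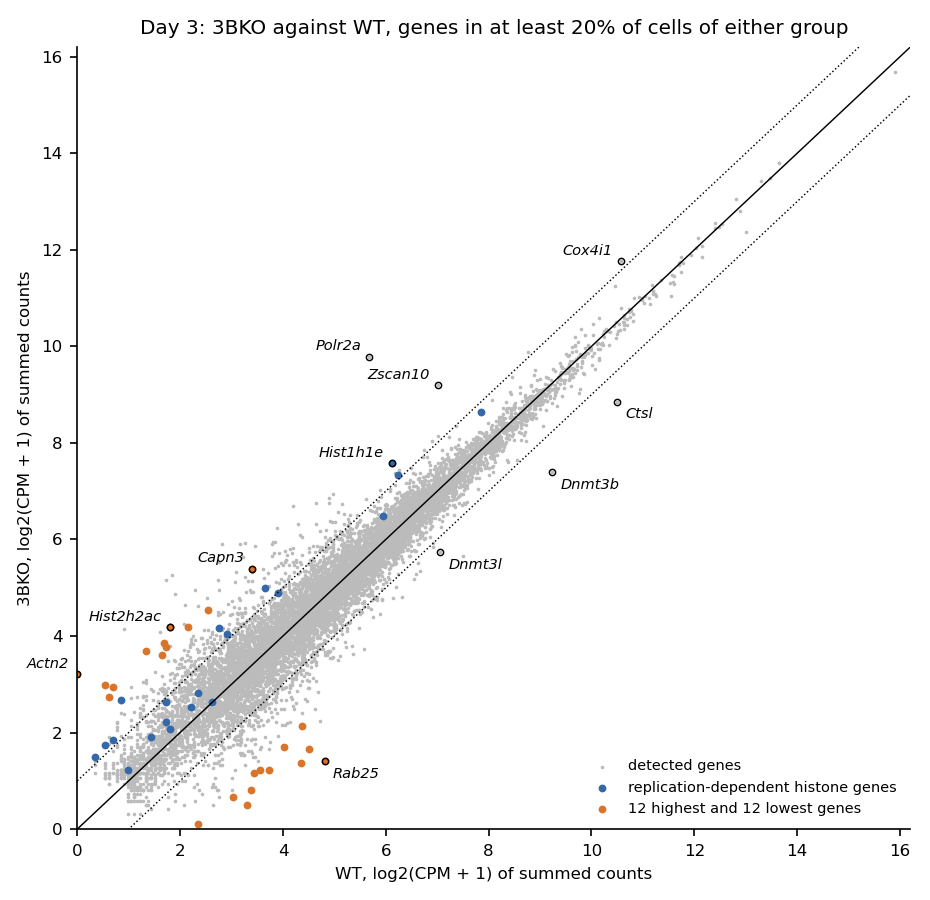
Level of each of 10625 detected genes in WT (x axis) and 3BKO (y axis), as log2(CPM + 1) of summed counts. The solid line marks equal levels and dotted lines a difference of 1. Histone genes (blue) lie on or above the line, the 12 highest and 12 lowest named genes are orange, and Polr2a, Zscan10, Cox4i1 and Ctsl lie far from it through reads of 1 cell each.

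Ectoderm genes were higher in 3BKO, in part through the cell of well A6. Of 22 genes of the list, 8 were detected, all 8 were above 0 and 5 were higher by at least 1, with a median of 1.24. Over all detected genes 50.96% were above 0 and 3.44% higher by at least 1. Without both cells, 7 were above 0, 3 were past 1 and the median was 0.83. The 3 were neural transcription factors. Pax6, the eye and forebrain factor, was at 34.5 CPM (31.3 to 37.99) against 8.98 (7.31 to 10.9), a difference of 1.83. It lies at chr2:105668900-105697364 (plus strand). Sox1, an early neuroectoderm marker, was at 17.01 CPM (14.8 to 19.5) against 6.13 (4.77 to 7.76), a difference of 1.34. Sox11 was at 13.5 CPM against 5.601 (1.14). With thinned cells, Sox1 had a read in 21 of 54 3BKO and 10 of 54 WT cells, a difference of 20.4 points (interval 2.07 to 37.4). Pax6 and Sox11 each had a read in 17 and 10 thinned cells, a difference of 12.96 points (interval -4.635 to 29.8), which includes 0. The highest cells of Pax6 were at 240.5 CPM in 3BKO and 83.9 in WT. Gbx2, a hindbrain and epiblast homeobox gene, differed by 0.82, Tubb3, a neuronal tubulin, by 0.89, and Nnat by 0.39. Gli2, a Hedgehog effector, went from 1.70 to -0.005 without both cells, and Ncam1, a neural adhesion molecule, from 1.57 to 0.41. Against WT cells of batch 2, Sox11 was lower in 3BKO, by -0.35, and Pax6 (15.0 CPM there) and Sox1 (6.26 CPM) remained higher. Sox3, Hes5, Neurog2 and Zic1 were among the 14 members below the detection limit.

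Meso-endoderm genes were close to absent in both groups. Of 22 genes, only Eomes, a T-box factor of the early streak, was detected, at 16.9 CPM against 18.9 (-0.15), with a read in 15 and 17 cells. T, the primitive streak factor, had no read in 3BKO cells and stood at 0.36 CPM in WT. Mixl1 was at 14.8 CPM in 3BKO, from 3 cells of which 1 held 93.8% of the reads, and had 0 reads in WT. Dab2, an endoderm adaptor, stood at 56.5 CPM in WT against 0.75, with 97.6% of the WT reads in 1 cell. Sparc, a matrix protein of parietal endoderm that other cells express as well, was at 182 CPM against 272 (-0.58). Its cell medians ran the other way, 103 against 8.35 CPM, with a read in 45 and 28 cells, and without both cells the difference was 1.31. Of the other lists for cells that could be present, no fibroblast marker was detected, and 1 of 10 blood and endothelium markers and 2 of 16 trophoblast markers were. The trophoblast pair differed in sign, with Fgfr2 at 1.76 and Krt8 at -1.18, or -0.47 without both cells.

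Pluripotency genes differed little between the groups. None of 13 detected naive, 10 core and 15 primed genes was past 1, and their medians were -0.20, 0.09 and -0.04. Among the core genes, Nanog differed by 0.07, Sox2 by -0.07 and Pou5f1 by 0.04. Lin28a, at 0.96, was the largest, and 0.28 without both cells. The most abundant naive transcript, Dppa5a, was at 5290 CPM against 8174 (-0.63), with cell medians of 5731 and 8430. The summed naive level of a cell lay above the WT median in 7.41% of 3BKO cells. Summed without Dppa5a that share was 29.6%, with cell medians of 1395 and 1783 CPM. WT cells of batch 2 held 3386 CPM of Dppa5a, less than either group. Zfp42 differed by -0.44 and Tfcp2l1 by -0.93, while Nr5a2 differed by 0.60 and Tbx3 by 0.63, or 0.04 for Tbx3 without both cells. Of the primed genes, Sfrp2, a secreted WNT inhibitor, was at 70.3 CPM against 37.8 (0.88) and Otx2 differed by -0.04.

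Of 24 germline genes, 10 were detected at low levels, all 10 were above 0, 2 were past 1 and the median was 0.67. Of all detected genes, 50.96% were above 0 and 3.44% higher by at least 1. Sycp1 (25.9% of 3BKO and 11.1% of WT cells) and Dazl (25.9% and 16.7%) passed the detection limit through 3BKO alone, which favours values above 0. Against WT cells of batch 2, 7 were above 0 and 3 below. Mael had a read in 15 3BKO and 24 WT cells, Rpl10l in 32 and 36 and Syce1 in 12 and 15, fewer in 3BKO for all 3. Without both cells, 10 were above 0 and 4 past 1. Sycp1, of the synaptonemal complex, was at 4.31 CPM (3.22 to 5.66) against 0.80 (0.37 to 1.52), a difference of 1.56. Hormad1, a meiotic chromosome axis protein, was at 19.9 CPM (17.5 to 22.6) against 8.27 (6.67 to 10.1), a difference of 1.17. It had a read in 20 and 8 thinned cells, a difference of 22.2 points (interval 4.51 to 38.6), and in 23 and 14 cells unthinned (interval of the difference -2.49 to 34.6). Dazl, an RNA-binding protein of germ cells, was at 17.4 against 8.27 CPM (0.99) and Ddx4, the vasa helicase, at 12.7 against 6.13 (0.94). Sycp3, at 0.02, was the smallest, and its exons share 660 bases with Chpt1 on the other strand. WT cells of batch 2 held 24.7 CPM of Hormad1 and 24.8 of Ddx4, above the 3BKO level, and 1.18 of Dazl and 2.36 of Sycp1, below it. No gene of the Rhox cluster was detected.

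The promoters of those 4 genes are shown because their methylation is the textbook example of silencing by the de novo enzymes. Each line gives the 250 bases before the RefSeq start in GRCm38.p6, with CpG sites in capitals.

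Sycp1, chr3:102936101-102936350, minus strand: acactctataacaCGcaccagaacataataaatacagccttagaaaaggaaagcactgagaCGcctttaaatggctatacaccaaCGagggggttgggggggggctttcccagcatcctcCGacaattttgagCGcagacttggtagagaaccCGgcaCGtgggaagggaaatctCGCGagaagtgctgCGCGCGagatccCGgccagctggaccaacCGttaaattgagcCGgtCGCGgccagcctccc
Hormad1, chr3:95559427-95559676, plus strand: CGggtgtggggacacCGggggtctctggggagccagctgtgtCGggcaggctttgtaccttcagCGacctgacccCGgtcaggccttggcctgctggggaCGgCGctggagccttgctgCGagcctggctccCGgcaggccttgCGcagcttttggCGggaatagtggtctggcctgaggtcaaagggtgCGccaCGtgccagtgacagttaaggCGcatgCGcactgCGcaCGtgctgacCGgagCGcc
Dazl, chr17:50293621-50293870, minus strand: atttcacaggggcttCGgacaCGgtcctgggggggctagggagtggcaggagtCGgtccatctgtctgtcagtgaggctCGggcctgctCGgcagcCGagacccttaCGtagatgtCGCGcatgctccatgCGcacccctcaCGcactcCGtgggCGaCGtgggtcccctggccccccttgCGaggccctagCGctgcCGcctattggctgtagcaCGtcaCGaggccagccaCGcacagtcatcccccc
Ddx4, chr13:112652311-112652560, minus strand: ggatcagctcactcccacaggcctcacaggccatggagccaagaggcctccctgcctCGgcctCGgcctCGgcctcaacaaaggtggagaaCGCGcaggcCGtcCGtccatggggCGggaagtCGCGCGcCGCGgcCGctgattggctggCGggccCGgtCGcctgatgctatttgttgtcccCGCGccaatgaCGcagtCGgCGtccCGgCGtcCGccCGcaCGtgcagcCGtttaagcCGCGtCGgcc

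The windows hold 17 CpG sites in Sycp1, 19 in Hormad1, 20 in Dazl and 31 in Ddx4. The median over all 32851 RefSeq windows of this length was 6. As many sites or more lay in 23.5% of all windows for Sycp1, 19.7% for Hormad1, 17.9% for Dazl and 5.2% for Ddx4. The 7825 detected genes with a promoter window had a median of 22 sites, over a longer stretch (250 bases before to 50 after the start). Of the 22 germline genes with a window, 10 (45.5%) held the E-box CACGTG, which is its own reverse complement, against 6.0% of all windows. Among the 4 printed, Sycp1, Hormad1 and Ddx4 held it and Dazl did not. TCCCGC, on either strand, lay in 7 of 22 (31.8%) against 16.9% of all windows. Of the 10 detected germline genes, 5 held CACGTG and 6 held TCCCGC. Motif shares were not computed over all detected genes, so the detected germline genes have no matching background. A match is a description of the sequence and no sign of binding.

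Signalling genes gave few members past 1. Of 15 detected Nodal pathway genes, 11 were above 0, with a median of 0.21. Smad3, a signal transducer, was at 4.31 CPM against 1.33 (1.19), and the receptor Acvr2a at 3.73 against 8.62 (-1.02), or -0.71 without both cells. The ligand Nodal was at 150.5 CPM in both (a difference of 0.00), and its inhibitors Lefty1 and Lefty2 differed by 0.56 and -0.39. Of 9 BMP genes, Bmpr2 was higher by 1.11 and the ligand Bmp4 differed by -0.95. Of 13 FGF and ERK genes, Fgfr2, a receptor, was at 7.22 against 1.42 CPM (1.76), and Spry1, a feedback inhibitor, differed by -0.85. None of 8 Wnt genes was past 1 (median -0.10). Of 18 p53 targets, Eda2r (1.74) and Pmaip1 (1.37) were past 1, Eda2r at 0.98 without both cells, and Cdkn1a differed by -0.62. Of 23 glycolysis and hypoxia genes, P4ha2 was past -1 (-1.05), or -0.40 without both cells, and Slc2a1, the glucose transporter, was at 2441 CPM against 1409 (0.79). Of 17 imprinted genes, Impact was at 280.0 CPM against 128 (1.13), or 0.74 without both cells. Of 10 interferon and MHC genes, 7 were below 0, and H2-K1, a class I molecule, was at 21.1 against 44.3 CPM (-1.04). Slfn9 (1.47) and Slfn8 (0.855) were the detected Schlafen genes. Exons of Acvr2a share 446 bases with Orc4, those of Spry1 710 with Gm42922, and those of Fgfr2 314 with Ctbp2, so these counts are uncertain. Ddit4 (1.31, or 0.72 without both cells), Jun (1.26) and Tubb2a (1.04) were the members past 1 of the stress, dissociation and neuronal cytoskeleton lists not yet named.

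**Figure D4:**
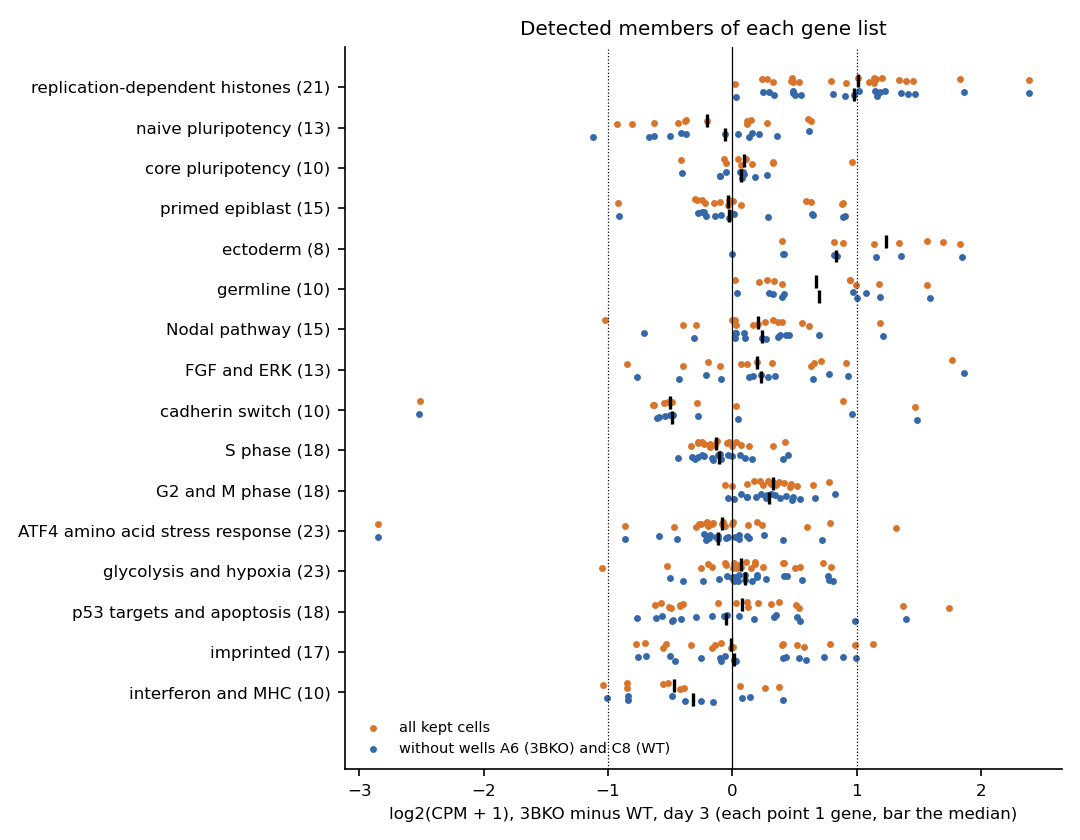
Difference between 3BKO and WT, on the log2(CPM + 1) scale, for each detected member of 16 gene groups, with all kept cells (orange) and without the cells of wells A6 and C8 (blue). Points are genes, bars are medians, and numbers in brackets count detected members. All histone members lie above 0 in both sets, and the ectoderm median moves from 1.24 to 0.83.

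Day 9 cells, which share no cell with the day 3 groups, gave the same contrast a second time in batch 1 (46 3BKO and 60 WT cells). Over 9113 genes detected on both days, the differences at day 3 and day 9 had a Pearson r of -0.04, a value across genes, which are not independent. Of 237 genes higher by at least 1 at day 3, 107 (45.15%) were above 0 at day 9, against 45.5% of all genes. Of 158 lower genes, 71 (44.9%) were below 0 at day 9, against 54.5% of all. The share past 1 at day 9 was 12.7% of the higher genes and 6.65% of all, and the share past -1 was 16.5% of the lower genes and 10.7% of all. Dnmt3b was lower on both days, at 15.9 CPM against 155 at day 9 (-3.21). Dnmt3l changed sign, at 298 CPM in 3BKO against 53.3 in WT at day 9 (2.46). So did Pax6 (7.84 against 34.5 CPM, -2.01), Sox11 (-2.97), Hist1h1e (24.7 against 66.6, -1.395), Vim (16.8 against 289, -4.03), Rab25 (33.2 against 14.04, 1.185) and Trib3 (88.7 against 25.5, 1.76). Cdh1 and Epcam were higher in 3BKO at day 9, by 0.75 and 0.76. Of 19 histone genes detected at day 9, 8 were above 0 and 11 below, with a median of -0.24. Of the named genes past 1 at day 3, 35 were also detected at day 9, 15 with the same sign and 20 with the opposite sign.

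**Figure D5:**
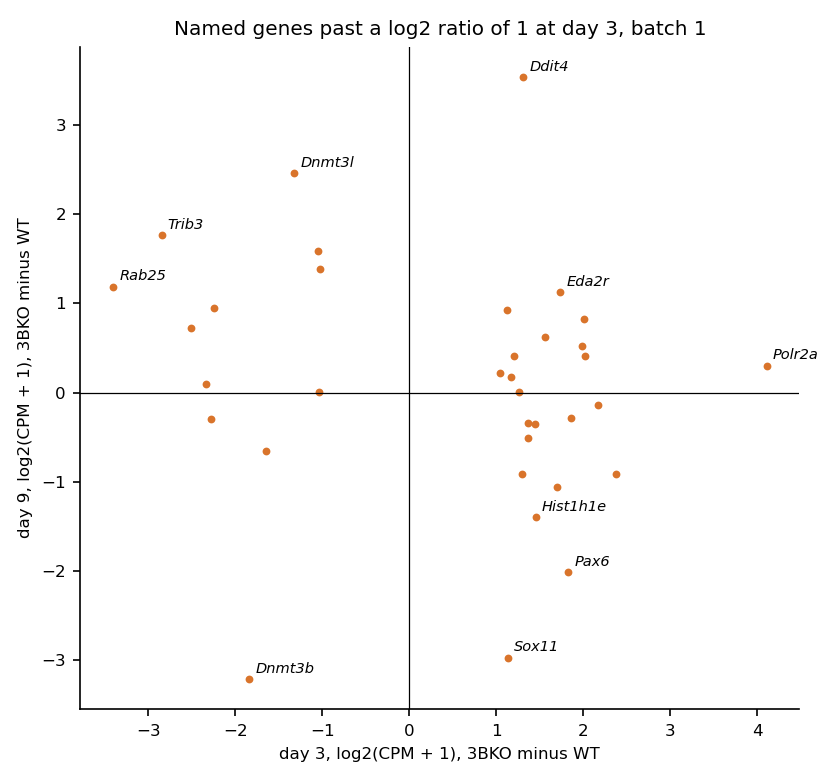
Difference between 3BKO and WT at day 3 (x axis) and day 9 (y axis), both log2(CPM + 1) in batch 1, for the 35 named genes past 1 at day 3 that were detected on both days. Each point is a gene. Dnmt3b lies below 0 on both axes, while Dnmt3l, Rab25 and Trib3 lie at the upper left and Pax6, Sox11 and Hist1h1e at the lower right.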

How the data were processed

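Single cells were profiled by Smart-seq2 with 75-base single-end reads. Per the labels and the submitters' processing notes, the authors trimmed reads (Trim Galore 0.5.0, FastQC 0.11.2), aligned them (STAR 2.7.1a, mm10/GRCm38.p6) and deposited raw read counts per gene (featureCounts 1.6.1), leaving out multi-mapped reads. Whether strand was used is not given in the sources used here. The table held 55228 gene names, and 26 columns without a matching sample were not used.

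Cells with at least 50000 reads, 2000 genes and at most 50% mitochondrial reads were kept, Y-linked genes left out, counts summed per group and scaled to CPM. With 1 sample per group no test was run. A gene was called past 1 at a difference of at least 1 in log2(CPM + 1), the pseudocount being 1 CPM. Counts of cells with a read are unthinned unless called thinned. Thinning drew every cell to 50000 reads, leaving out none of the kept cells. Intervals of differences between shares combined the Clopper-Pearson bounds of both shares by squaring and adding. Tools were Python 3.11.15, numpy 2.4.6, pandas 2.3.3 and scipy 1.17.1, with R 4.3.3, edgeR 4.0.16 and DESeq2 1.42.0 for other scaling factors only. Scripts were tested on simulated data. Named genes were the 12 largest differences each way (past 1 also with mean CPM and thinned cells, at most 50% of the higher group's reads in 1 cell), the 8 largest each way among genes read in 80% of cells of both groups, 6 DNMT and TET genes, and of each list the extremes and members past 1. Unnamed gene models and mitochondrial genes were passed over. Further list and histone genes were named after their values were seen. Members and lists were chosen with earlier results of these data known.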

Additional observations from a re-analysis of the deposited data

How the results depend on the processing

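With WT cells of batch 2 as the control, 1877 genes were higher and 1225 lower by at least 1, Dnmt3b differed by -1.64, and 6 named genes changed sign: Jmy (-0.44), Sox11 (-0.35), Krt8 (0.32), Hormad1 (-0.30), Pmaip1 (-0.20) and P4ha2 (0.70). That control moved the median of all genes to 0.33. A pseudocount of 10 left 96 higher and 28 lower genes and an ectoderm median of 0.79, and thinned cells gave an ectoderm median of 0.75. Detection in 10% of cells gave 469 lower genes, and in 40% of cells 178 higher and 102 lower. Polr2a and Hnrnpl reversed under the stricter cell filter (-0.15 and -0.23), without the top cell of each gene (-0.094 and -0.123), without well A6 (-0.14 and -0.20) and without both wells A6 and C8 (-0.17 and -0.205). Ctsl reversed without the top cell (0.089), without C8 (0.15) and without both (0.205), and Gli2 without both (-0.005). The settings that leave out wells A6 and C8 were chosen after seeing the data. The cause of the batch 2 differences was not tested. The 24 genes at both ends kept their sign under 13 of 14 settings, and 23 did so with batch 2 as the control. That tally was in part fixed beforehand. The genes were chosen to stay past 1 with mean CPM and thinned cells, and a pseudocount cannot change a sign. Of the 24, 9 stayed past 1 with a pseudocount of 10 and 16 with batch 2. Promoter features of the higher and lower genes were computed but are not reported, because too few detected genes (73.65%) matched a promoter window. No paired analysis was possible because each group was 1 sample and replicate numbers only name cells. A plate, a clone and a genotype cannot be told apart at n = 1, and a gene read in few cells has a level set by those cells.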
